A study of Homo sapiens with 12 samples.

Results

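The 47 genes described here are genes of mitosis and the G2/M transition: cyclins and kinases of mitotic entry, the 2 transcription factors FOXM1 and MYBL2, and genes of the spindle checkpoint, the kinetochore, the spindle and cytokinesis. They were taken by symbol from a fixed list, and all 47 were found among the 25365 rows of the expression table. RNA-seq was performed on A549 cells, a human lung adenocarcinoma line, that were either wild type (WT) or carried a homozygous deletion in PARP3 made with Cas9 and a pair of guides (PARP3-/-). Each genotype was treated for 24 h with the DMSO vehicle or with 1 µM pyridostatin, a small molecule that binds and stabilizes G-quadruplex DNA, and each of the 4 groups held 3 biological replicates, 12 libraries in all. The study's methods describe cloning of the edited A549 cells by dilution without saying how many clones gave RNA, so a difference between the genotypes cannot be told apart from a difference between clones. Levels are FPKM (fragments divided by transcript length in kilobases and by the mapped total), a scale that allows levels to be compared between genes.

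Mitotic genes are periodic: their mRNAs are low after division, accumulate through S and G2, and peak as cells enter mitosis. Cyclin B with CDK1 drives entry, the spindle checkpoint holds the anaphase-promoting complex back until every kinetochore is attached, and central spindle proteins then direct the cleavage of the cell. Many of their promoters carry a cell cycle genes homology region (CHR), which recruits the DREAM complex in resting cells and B-MYB, the product of MYBL2, with FOXM1 in G2, and CCAAT boxes bound by NF-Y. In RNA from bulk cultures, fewer cells in G2 and M and less of the RNA in each such cell cannot be told apart.

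Promoter windows were available in RefSeq (GRCh38.p14) for 40 of the 47 genes, from 250 bases before the annotated start to 50 bases from it. The genes without a window were AURKA, PBK, FOXM1, TTK, UBE2C, BIRC5 and TPX2. A CHR, searched on both strands as TTTGAA or as TTTAAA, which reads the same on either strand, was found for 35 of the 40 genes (87.5%), against 27.9% of the 27305 genes with a window and 20.8% of those tested for expression. A CCAAT box on either strand was found for 33 (82.5%), against 39.7% of all genes with a window and 43.6% of those tested. Both elements lay in the same window for 28 genes (70.0%), against 11.2% of all and 8.96% of those tested. A G-quadruplex pattern, 4 runs of at least 3 G with loops of 1 to 7 bases on either strand, was found for 11 (27.5%), against 27.9% of all genes and 41.6% of those tested. The 6 windows below, each from 130 bases before the start to 20 bases from it and written 5′ to 3′ on the strand of the gene, are shown because they place the shared elements in genes whose levels are described below. Capitals mark the CHR and the CCAAT boxes, the latter written ATTGG where they lie on the other strand.
CCNB1 (chr5:69167020-69167169, plus strand): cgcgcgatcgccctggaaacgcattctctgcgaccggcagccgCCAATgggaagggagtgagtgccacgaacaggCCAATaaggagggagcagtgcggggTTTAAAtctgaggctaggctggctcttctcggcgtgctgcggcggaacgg
CCNB2 (chr15:59105016-59105165, plus strand): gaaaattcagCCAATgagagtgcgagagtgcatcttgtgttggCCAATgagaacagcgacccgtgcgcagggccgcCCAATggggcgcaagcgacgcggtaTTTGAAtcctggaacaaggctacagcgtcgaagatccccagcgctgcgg
CDC20 (chr1:43358851-43359000, plus strand): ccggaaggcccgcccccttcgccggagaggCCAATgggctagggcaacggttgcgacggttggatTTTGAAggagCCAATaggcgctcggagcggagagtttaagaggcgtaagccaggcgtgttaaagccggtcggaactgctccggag
PLK1 (chr16:23678759-23678908, plus strand): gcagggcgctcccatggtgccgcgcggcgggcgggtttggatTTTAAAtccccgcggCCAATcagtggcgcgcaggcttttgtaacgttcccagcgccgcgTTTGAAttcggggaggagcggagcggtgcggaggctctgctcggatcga
KIF20A (chr5:138178982-138179131, plus strand): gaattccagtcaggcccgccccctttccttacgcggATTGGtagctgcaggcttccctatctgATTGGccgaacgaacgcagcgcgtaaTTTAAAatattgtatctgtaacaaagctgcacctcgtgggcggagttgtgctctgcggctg
PRC1 (chr15:90994516-90994665, minus strand): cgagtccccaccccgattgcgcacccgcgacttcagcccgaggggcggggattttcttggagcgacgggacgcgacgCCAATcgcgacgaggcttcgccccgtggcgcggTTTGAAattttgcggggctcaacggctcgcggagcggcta

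In CCNB1, CCNB2 and PLK1 a CHR began 30, 29 and 29 bases before the start, and in KIF20A and PRC1 it began 41 and 20 bases before it. In CDC20 it lay farther out, 65 bases before the start and between 2 CCAAT boxes. CCNB2 carried 3 CCAAT boxes, at 120, 87 and 54 bases. Among the 40 genes, those called lower with pyridostatin in PARP3-/- cells (17) and those not called (23) held a CHR in 88.2% and 87.0%, a CCAAT box in 70.6% and 91.3%, and the G-quadruplex pattern in 23.5% and 30.4%. These are matches to letters in a window and were not tested against the expression values.

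Before any comparison, replicate 2 of the WT vehicle group stood apart from the other libraries. Against the mean of WT vehicle replicates 1 and 3, it was lower for all of the 16 genes with the longest coding transcripts (3605 to 12678 bases, median difference -0.31 on the log2(FPKM + 1) scale) and lower for 4 of the 16 with the shortest (613 to 2248 bases, median 0.091). ASPM, an organizer of spindle poles, had 9.27 FPKM in it against 15.5 and 15.2, and MKI67 had 24.9 against 36.1 and 35.5. At the other end PTTG1, the securin that restrains separase, had 212 FPKM against 167 and 171. Across the 47 genes the Spearman correlation of this difference with transcript length was -0.79, and across 10529 tested genes with a length it was -0.69. These points come from 1 library and share its depth and base composition, so they are a description. In the other 11 libraries, set against their own groups, the same correlation over the 47 genes ran from -0.65 (PARP3-/- vehicle replicate 3) to 0.57 (PARP3-/- vehicle replicate 1), and over all genes from -0.24 to 0.21. In those 11 the median of the 16 longest minus that of the 16 shortest ran from -0.073 to 0.068, against -0.40 in this library. The cause was not tested. Counts over the 47 genes are therefore given with and without it.

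**Figure D1:**
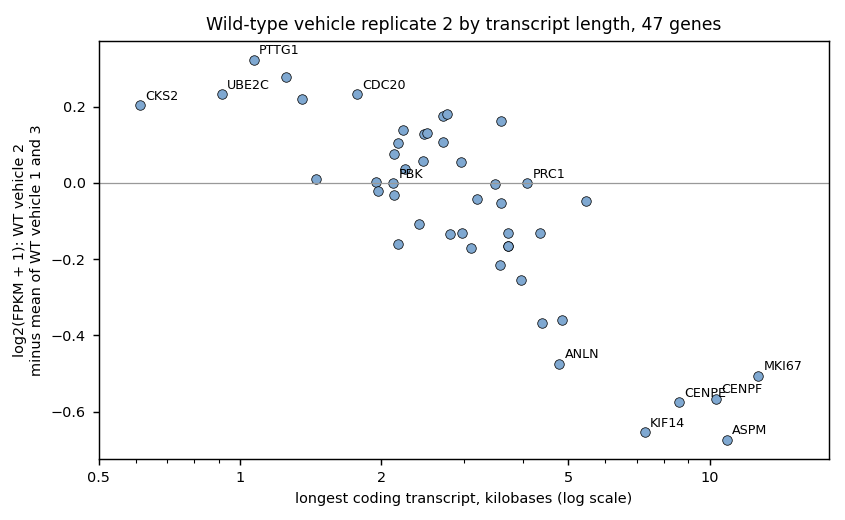
Difference of WT vehicle replicate 2 from the mean of WT vehicle replicates 1 and 3 on the log2(FPKM + 1) scale (vertical axis) against the length of the longest coding transcript in kilobases (horizontal axis, log scale), 1 point for each of the 47 genes. The 16 longest genes all lie below 0, with KIF14, CENPE, CENPF, ASPM and MKI67 lowest, while PTTG1, UBE2C, CDC20 and CKS2 lie above it.

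The total of all FPKM values was 563473 in that library and 492839 to 525124 in the others. The files give no read counts, and the steps between low FPKM values put the relative depth of the deepest library at 1.41 times that of the shallowest. All 9 epithelial markers of A549 (keratins, EPCAM and others) were above a mean of 1 FPKM and summed to 9364 to 12284, while 1 of 5 leukocyte, 0 of 4 endothelial and 1 of 5 fibroblast markers reached that mean. These 3 lists summed to 2.83 to 6.30, 0.116 to 0.375 and 0.637 to 2.03 FPKM, with PTPRC, CD3E, PECAM1, VWF and DCN below 0.1. The leukocyte and fibroblast markers above a mean of 1 FPKM were CD14 (4.29) and COL1A1 (1.08), while EPCAM averaged 1.51. With vehicle, PARP3 itself measured 3.73 ± 0.293 FPKM in WT and 4.41 ± 0.447 in libraries labelled PARP3-/- (SD, n = 3), and with pyridostatin 3.79 ± 0.243 and 4.58 ± 0.245. It was not lower in the deleted line in either treatment (exact two-sided permutation p = 0.1 in each, the smallest that 3 against 3 allows). A value per gene does not show whether the targeted stretch is missing, so it does not check the genotype.

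All 47 genes were well expressed. Averaged over the 12 libraries, their levels ran from 7.54 FPKM for CENPE, a kinetochore motor, to 371 FPKM for KPNA2, an importin that also chaperones the spindle factor TPX2. CKS2, a small partner of CDK1, followed with 345, and UBE2C and PTTG1 had 182 and 166. At the low end stood CDC25C with 7.92, KIF14 with 9.48 and NDC80 with 10.7. Replicates were close in 3 of the groups. The median coefficient of variation over the 47 genes was 2.76% in PARP3-/- with vehicle, 3.86% in WT with pyridostatin and 3.05% in PARP3-/- with pyridostatin. In WT with vehicle it was 6.25%, with 11 genes above 10% and KIF14 at 26.6%.

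**Figure D2:**
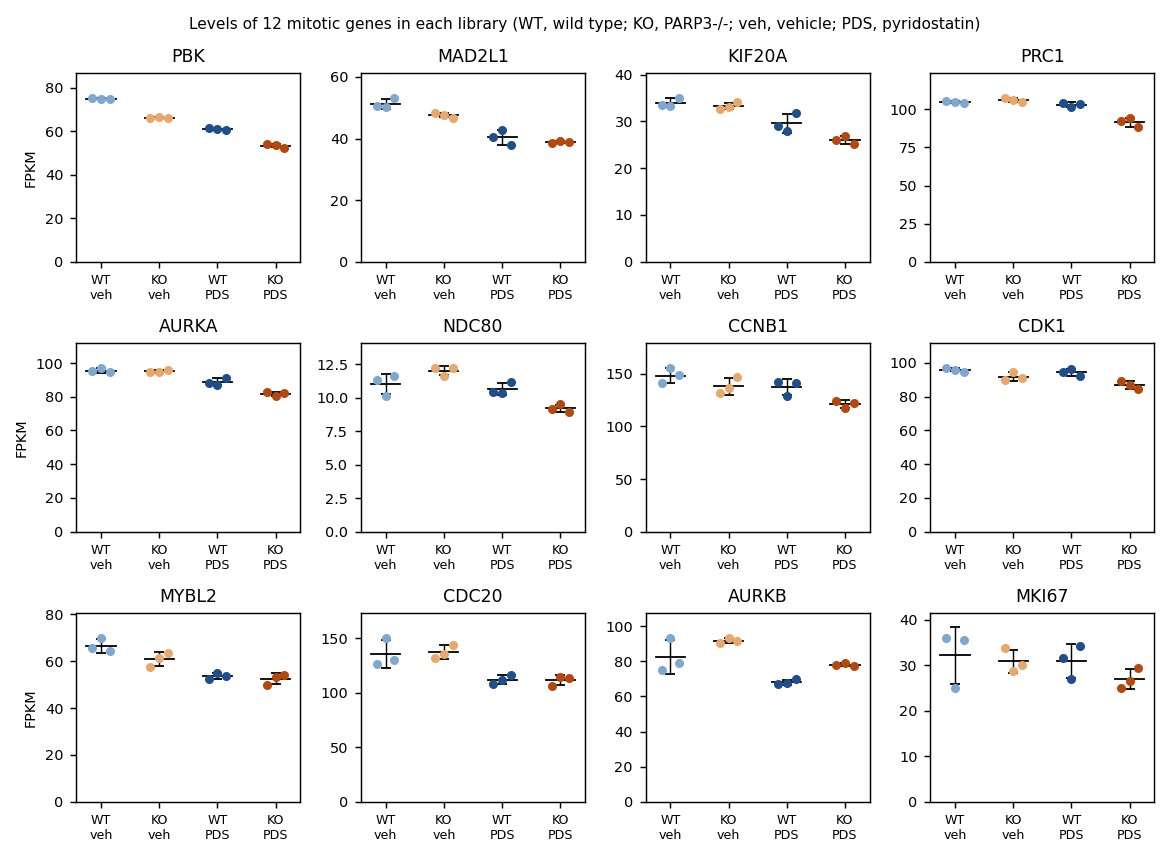
FPKM of 12 of the genes in each of the 12 libraries, with the mean and SD of the 3 libraries of each group (WT, wild type; KO, PARP3-/-; veh, vehicle; PDS, pyridostatin); each vertical axis starts at 0. PBK falls into 4 separate groups from 74.6 to 75.3 in WT vehicle down to 52.4 to 54.0 in PARP3-/- pyridostatin, whereas PRC1 lies at 88.3 to 94.2 in PARP3-/- pyridostatin and at 101 or more in the other groups.

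The first question was whether pyridostatin moved these genes. It lowered a share of them in each genotype, and by small amounts. In WT cells 7 of the 47 were called lower and 0 higher (limma on log2(FPKM + 1), adjusted p under 0.05 over all 11881 genes tested), where 1.38% of all genes were called lower and 2.79% higher. PARP3-/- cells had 22 called lower and 0 higher, where 2.52% of all genes were called lower and 3.05% higher. The 7 were PBK, MYBL2, MAD2L1, CDC20, AURKB, CENPA and KIF20A. Of the 47 genes, 5 were called in both genotypes (PBK, MYBL2, MAD2L1, CDC20 and KIF20A), 2 in WT alone, 17 in PARP3-/- alone and 23 in neither. No change reached a log2 fold change of 1 in size. The steepest was -0.35 for NDC80 in PARP3-/- cells.

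The median log2 fold change of the 47 genes was -0.12 in WT and -0.21 in PARP3-/- cells, while the median of all genes tested was 0.0030 and 0.0021. In WT cells 44 of the 47 lay below 0, and in PARP3-/- cells 45 did. In WT cells all 3 pyridostatin values lay below all 3 vehicle values for 21 genes (9.71% of all genes did so). In PARP3-/- cells they did for 43 genes (15.7% of all genes), the exceptions being CDC25B, CDC25C, UBE2C and MKI67. When WT vehicle replicate 2 was left out, 15 genes were called lower in WT (2.47% of all genes) and 37 in PARP3-/- cells (6.19% of all genes), and 0 were called higher in either (3.48% and 6.94% of all genes). The second count of genes called lower changed although this library belongs to neither PARP3-/- group, because all groups share one estimate of the spread. Other omissions lowered the counts. The WT count was 3 without WT pyridostatin replicate 1 or WT vehicle replicate 3, 4 without WT pyridostatin replicate 3 or any 1 of the PARP3-/- libraries, and 1 (PBK) with only the WT libraries fitted. The PARP3-/- count was 9 and 11 without PARP3-/- pyridostatin replicates 3 and 2, and 10 and 13 without PARP3-/- vehicle replicates 3 and 2. Over all 20 alternatives run, 8 settings and 12 omissions of 1 library, PBK kept its WT call in each, and 8 of the 22 in PARP3-/- cells did so (AURKA, PBK, MAD2L1, NDC80, KIF4A, HMMR, PRC1 and KIF20A). CDC20, AURKB and KIF20A lost the WT call in 10 or 11 of the 12 omissions, and NEK2, MYBL2, BUB1B, BIRC5 and NUSAP1 lost that in PARP3-/- cells in 7 to 10.

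**Figure D3:**
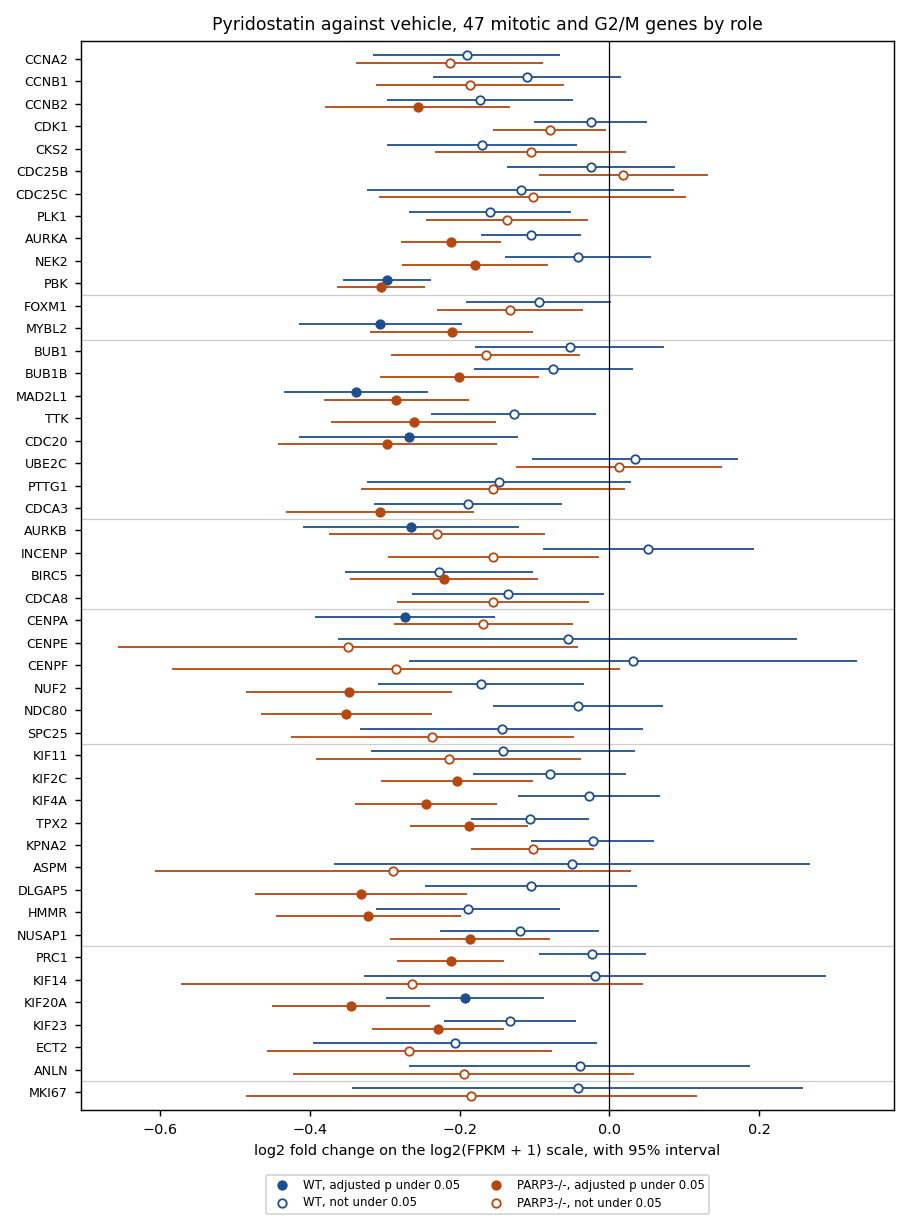
Log2 fold change of each of the 47 genes for pyridostatin against vehicle on the log2(FPKM + 1) scale with its 95% interval, WT in blue and PARP3-/- in orange; filled points passed an adjusted p of 0.05 and grey lines part the roles. Most points lie left of 0 in both genotypes, 7 are filled for WT and 22 for PARP3-/-, and the widest intervals belong to CENPE, CENPF, ASPM, KIF14 and MKI67.

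The fall was visible in single libraries. Relative to the mean of the 3 WT vehicle libraries, the median of the 47 genes was -0.11, -0.15 and -0.061 in the WT pyridostatin libraries and -0.23, -0.25 and -0.22 in the PARP3-/- pyridostatin libraries. In each of the last 3 libraries all 47 genes were below that baseline. These 3 libraries differ from it in genotype as well as in treatment. The PARP3-/- vehicle libraries lay at -0.015, -0.020 and -0.0095, with 28, 31 and 25 genes below it. The share of all genes below it was not counted, so the counts of 28, 31 and 25 are no result about the 47. Set against WT vehicle replicates 1 and 3 alone, the PARP3-/- vehicle libraries lay at -0.065, -0.052 and -0.032. The WT pyridostatin libraries then lay at -0.15, -0.18 and -0.074, and the PARP3-/- pyridostatin libraries at -0.24, -0.28 and -0.26. The median over all genes tested stayed between 0.00 and 0.027 in every library.

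**Figure D4:**
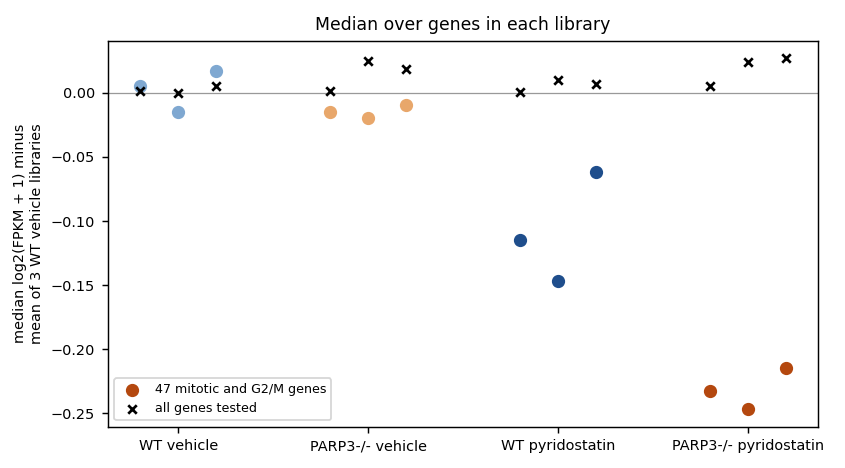
Median over genes of log2(FPKM + 1) minus the mean of the 3 WT vehicle libraries, 1 point per library, for the 47 genes (circles) and for all genes tested (crosses). The circles lie at -0.061 to -0.15 in WT pyridostatin and at -0.22 to -0.25 in PARP3-/- pyridostatin, while the crosses stay at or near 0.

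Among the 11 genes of mitotic entry, 1 was called lower with pyridostatin in WT and 4 in PARP3-/- cells. PBK, a mitotic serine/threonine kinase, was the gene called in both. It had 75.3, 74.9 and 74.6 FPKM in the WT vehicle libraries and 61.2, 60.8 and 60.4 with pyridostatin, and 65.8, 66.3 and 66.2 in PARP3-/- with vehicle and 54.01, 53.5 and 52.4 with pyridostatin. No group overlapped another. The means fell by 18.9% in WT (log2 fold change -0.30, SE 0.027, 95% interval -0.36 to -0.24, limma adjusted p = 0.00021) and by 19.3% in PARP3-/- cells (-0.30, SE 0.027, 95% interval -0.36 to -0.25, adjusted p = 0.000204).

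AURKA, the kinase of centrosome maturation and spindle assembly, had 95.1, 97.2 and 94.4 FPKM in WT vehicle and 88.2, 87.1 and 91.2 in WT pyridostatin libraries, and 94.5, 94.4 and 96.1 with vehicle and 82.7, 80.6 and 82.4 with pyridostatin in PARP3-/- libraries. It was lower in every treated library of each genotype, and the call was made in PARP3-/- cells (-0.21, SE 0.030, 95% interval -0.28 to -0.14, adjusted p = 0.003) but not in WT (-0.10, SE 0.030, 95% interval -0.17 to -0.037, adjusted p = 0.0854). NEK2, which loosens the link between centrosomes, had 34.1, 34.6 and 36.6 FPKM with vehicle and 34.99, 32.5 and 34.7 with pyridostatin in WT, which overlapped, and 34.9, 34.7 and 34.4 with vehicle and 31.8, 28.96 and 30.8 with pyridostatin in PARP3-/- cells, which did not (-0.18, SE 0.044, adjusted p = 0.0419). CCNB2 was also called in PARP3-/- cells, at 65.2 ± 0.682 against 78.2 ± 4.31 FPKM (SD, n = 3). Its log2 fold change was -0.26 there (SE 0.056, limma adjusted p = 0.0254). In WT it was -0.17, without overlap and not called (adjusted p = 0.118).

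The core pair of mitotic entry passed in neither genotype. CCNB1, cyclin B1, had 141, 156 and 148 FPKM in WT vehicle, 142, 128 and 141 in WT pyridostatin, 131, 136 and 147 in PARP3-/- vehicle and 124, 118 and 122 in PARP3-/- pyridostatin libraries. The WT groups overlapped and the PARP3-/- groups did not, with log2 fold changes of -0.11 (SE 0.057, 95% interval -0.24 to 0.015) and -0.19 (SE 0.057, 95% interval -0.31 to -0.060) and adjusted p = 0.308 and 0.0898 (limma). CDK1 had 97.1, 96.1 and 94.9 FPKM with vehicle and 94.6, 96.3 and 92.1 with pyridostatin in WT, and 90.1, 94.7 and 90.8 with vehicle and 89.2, 86.7 and 84.7 with pyridostatin in PARP3-/- cells. Its log2 fold changes were the smallest of CCNB1, CDK1, PLK1 and AURKA, with an interval of -0.10 to 0.050 in WT and -0.16 to -0.0045 in PARP3-/- cells. PLK1, the polo kinase that acts from entry to cytokinesis, had 109, 121 and 112 FPKM with vehicle and 99.9, 103 and 102 with pyridostatin in WT, and 104, 108 and 109.6 with vehicle and 92.4, 98.3 and 102 with pyridostatin in PARP3-/- cells. All treated values of PLK1 lay below the untreated ones in each genotype, at -0.16 (SE 0.049) and -0.14 (SE 0.049), with adjusted p = 0.0989 and 0.143. For CCNB1, PLK1 and CCNA2 the adjusted p in PARP3-/- cells was 0.0456, 0.0415 and 0.0217 without WT vehicle replicate 2. CCNA2 was then called in WT too (-0.24, limma adjusted p = 0.0365). CKS2, CDC25B and CDC25C were called in neither genotype, and CDC25B, a phosphatase that activates CDK1, had a change of 0.019 in PARP3-/- cells.

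Of the 2 transcription factors, MYBL2 was called lower in each genotype and FOXM1 in neither, and whether the genes differed in their change was not tested. MYBL2, which encodes B-MYB, had 65.7, 70.1 and 64.3 FPKM in WT vehicle and 52.4, 55.1 and 53.6 in WT pyridostatin libraries, a drop of 19.4% without overlap (-0.31, SE 0.049, 95% interval -0.41 to -0.20, adjusted p = 0.00715). In PARP3-/- cells it had 57.7, 61.6 and 63.5 with vehicle and 49.9, 53.4 and 54.3 with pyridostatin, again without overlap (-0.21, SE 0.049, 95% interval -0.32 to -0.10, adjusted p = 0.0344). FOXM1 had 53.3, 53.7 and 54.3 FPKM with vehicle and 48.3, 50.9 and 51.8 with pyridostatin in WT, and 48.8, 48.9 and 50.5 with vehicle and 42.7, 44.4 and 47.9 with pyridostatin in PARP3-/- cells. Its treated values were below the untreated ones in each genotype, at -0.094 (SE 0.044, 95% interval -0.19 to 0.0026) and -0.13 (SE 0.044, 95% interval -0.23 to -0.036), and neither passed (adjusted p = 0.259 and 0.116, limma).

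Among the 8 genes of the spindle checkpoint and the anaphase-promoting complex, 2 were called lower in WT and 5 in PARP3-/- cells. MAD2L1, the MAD2 protein that captures CDC20, had 50.5, 50.1 and 53.2 FPKM in WT vehicle, 40.7, 42.7 and 37.8 in WT pyridostatin, 48.2, 47.6 and 46.8 in PARP3-/- vehicle and 38.5, 39.3 and 38.7 in PARP3-/- pyridostatin libraries. It fell by 21.2% in WT (-0.34, SE 0.044, 95% interval -0.43 to -0.24, adjusted p = 0.0017), the steepest fall among the 47 there, and by 18.3% in PARP3-/- cells (-0.28, SE 0.044, 95% interval -0.38 to -0.19, adjusted p = 0.00427). The treated and untreated values did not overlap in either.

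CDC20, the activator that MAD2 holds, had 126, 151 and 130.005 FPKM with vehicle and 108, 112 and 117 with pyridostatin in WT, where the highest vehicle value belonged to replicate 2, and 132, 135 and 144 with vehicle and 106, 115 and 114 with pyridostatin in PARP3-/- cells. The log2 fold changes were -0.27 and -0.30 (adjusted p = 0.0497 and 0.0274, limma), and without that library they were -0.19 and -0.30 (adjusted p = 0.055 and 0.00329), so the WT call was lost. BUB1, a checkpoint kinase at kinetochores, had 30.1, 25.7 and 29.9 FPKM with vehicle and 27.2, 26.3 and 29.005 with pyridostatin in WT, and 28.2, 27.4 and 27.7 with vehicle and 24.8, 24.6 and 24.7 with pyridostatin in PARP3-/- cells. The PARP3-/- groups were apart (-0.17, SE 0.057, adjusted p = 0.13, and 0.0142 without WT vehicle replicate 2), and the WT groups overlapped (-0.053, SE 0.057). The other genes called in PARP3-/- cells were BUB1B (-0.20, adjusted p = 0.0381), TTK, the MPS1 kinase (-0.26, adjusted p = 0.0139), and CDCA3 (-0.31, adjusted p = 0.0123). In WT they changed by -0.075, -0.13 and -0.19 and were not called (limma adjusted p = 0.415, 0.184 and 0.0935). Without WT vehicle replicate 2 TTK was called in WT too (-0.18, adjusted p = 0.0246). UBE2C, the ubiquitin-conjugating enzyme of the anaphase-promoting complex, had changes of 0.034 and 0.013, with intervals of -0.10 to 0.17 and -0.13 to 0.15. PTTG1 changed by -0.15 in WT and -0.16 in PARP3-/- cells and was called in neither. Without WT vehicle replicate 2 it was called in PARP3-/- cells (limma adjusted p = 0.0409).

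The chromosomal passenger complex consists of the kinase AURKB and its partners INCENP, BIRC5 (survivin) and CDCA8 (borealin). AURKB was called lower with pyridostatin in WT, at 68.2 ± 1.40 against 82.5 ± 9.74 FPKM (SD, n = 3; -0.27, SE 0.065, adjusted p = 0.0493), with -0.17 (adjusted p = 0.0138) without WT vehicle replicate 2, the highest value of its group. This call was lost in 5 of 8 settings and 10 of 12 omissions of 1 library, with a limma adjusted p of up to 0.268. In PARP3-/- cells it had 78.02 ± 0.819 against 91.7 ± 1.44, without overlap but with adjusted p = 0.0694, and 0.00115 without WT vehicle replicate 2. BIRC5 was called in PARP3-/- cells (-0.22, SE 0.056, adjusted p = 0.0487) and missed the threshold in WT with a change of like size (-0.23, SE 0.056, adjusted p = 0.0512). INCENP had 0.052 in WT and -0.15 in PARP3-/- cells, and CDCA8 -0.14 and -0.16, none of them called. Without WT vehicle replicate 2 the INCENP value in WT turned to -0.033, and INCENP was called lower in PARP3-/- cells (adjusted p = 0.0185, limma).

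Of the 6 centromere and kinetochore genes, 1 was called lower in WT and 2 in PARP3-/- cells. CENPA, the histone H3 variant of centromeres, was the one in WT, at 24.1 ± 1.51 against 29.3 ± 1.29 FPKM (SD, n = 3). Its log2 fold change was -0.27 there (SE 0.054, limma adjusted p = 0.0212). In PARP3-/- cells its treated values also lay below the untreated ones, and it was not called (-0.17, 95% interval -0.29 to -0.048, adjusted p = 0.107). NDC80 and NUF2, partners in the complex that grips microtubule ends, were called in PARP3-/- cells. NDC80 had 11.3, 10.2 and 11.6 FPKM in WT vehicle and 10.5, 10.4 and 11.2 in WT pyridostatin libraries, which overlapped, and 12.2, 11.6 and 12.2 with vehicle and 9.20, 9.50 and 8.96 with pyridostatin in PARP3-/- cells. The latter was a drop of 23.4% (-0.35, SE 0.051, 95% interval -0.46 to -0.24, adjusted p = 0.00335), against -0.042 (SE 0.051, 95% interval -0.16 to 0.072) in WT.

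NUF2 had 32.9, 32.4 and 32.96 FPKM with vehicle and 30.6, 26.5 and 30.02 with pyridostatin in WT, and 31.4, 30.3 and 33.2 with vehicle and 26.5, 24.4 and 23.1 with pyridostatin in PARP3-/- cells. It was lower in every treated library of each genotype, by 22.01% in PARP3-/- cells (-0.35, SE 0.062, adjusted p = 0.0102) and by 11.4% in WT (-0.17, SE 0.062, adjusted p = 0.158). CENPF, a large kinetochore protein with a long transcript, had 23.6, 15.5 and 23.3 FPKM with vehicle and 21.4, 18.7 and 22.8 with pyridostatin in WT, and 22.7, 19.95 and 19.8 with vehicle and 16.4, 16.7 and 17.6 with pyridostatin in PARP3-/- cells. The PARP3-/- groups did not overlap. Its interval there was -0.58 to 0.014 with all libraries (adjusted p = 0.281) and -0.45 to -0.12 without WT vehicle replicate 2 (adjusted p = 0.0315). SPC25 and CENPE were called in neither genotype, at -0.24 and -0.35 in PARP3-/- cells. Without WT vehicle replicate 2 CENPE was called there (limma adjusted p = 0.0172) and SPC25 was not (adjusted p = 0.0696).

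The 9 spindle motors and microtubule binders included 0 genes called in WT and 6 in PARP3-/- cells. DLGAP5, which stabilizes microtubules near chromosomes, had 42.8, 38.3 and 41.2 FPKM in WT vehicle and 37.6, 35.3 and 40.8 in WT pyridostatin libraries, with overlap, and 41.3, 38.1 and 39.3 with vehicle and 32.97, 31.6 and 29.3 with pyridostatin in PARP3-/- cells, without (-0.33, SE 0.064, 95% interval -0.47 to -0.19, adjusted p = 0.0149). TPX2, the activator of AURKA on the spindle, had 96.6, 92.8 and 95.9 FPKM with vehicle and 87.7, 85.7 and 91.4 with pyridostatin in WT, and 95.05, 93.8 and 99.4 with vehicle and 84.9, 83.8 and 84.1 with pyridostatin in PARP3-/- cells. Its treated values were the lower ones in each genotype, called in PARP3-/- cells (-0.19, SE 0.036, adjusted p = 0.0139) and not in WT (-0.11, SE 0.036, adjusted p = 0.13).

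The other 4 called in PARP3-/- cells were HMMR (-0.32, adjusted p = 0.0086), KIF4A, a chromokinesin (-0.25, adjusted p = 0.00886), KIF2C, which removes tubulin from microtubule ends (-0.20, adjusted p = 0.0293), and NUSAP1 (-0.19, adjusted p = 0.0498). In WT these 4 changed by -0.19, -0.027, -0.080 and -0.12 (limma adjusted p = 0.0893, 0.771, 0.364 and 0.195). KIF11, the motor that pushes spindle poles apart, KPNA2 and ASPM were not called in either genotype. All 9 were called in PARP3-/- cells without WT vehicle replicate 2, KIF11 at -0.21 (adjusted p = 0.00115) and ASPM at -0.29 (adjusted p = 0.00181), and HMMR, KIF11 and ASPM were called in WT.

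Of the 6 genes of the central spindle and cytokinesis, 1 was called lower in WT and 3 in PARP3-/- cells. KIF20A, the motor that carries passenger proteins to the central spindle, had 33.5, 33.3 and 35.04 FPKM in WT vehicle, 28.9, 28.001 and 31.8 in WT pyridostatin, 32.7, 33.02 and 34.1 in PARP3-/- vehicle and 25.97, 26.8 and 25.2 in PARP3-/- pyridostatin libraries. Treated and untreated values did not overlap in either genotype. The drop was 12.8% in WT (-0.19, SE 0.048, 95% interval -0.30 to -0.088, adjusted p = 0.0497) and 21.9% in PARP3-/- cells (-0.34, SE 0.048, 95% interval -0.45 to -0.24, adjusted p = 0.00248). The WT call was lost in 6 of 8 settings and 10 of 12 omissions of 1 library (limma adjusted p of up to 0.246), and the PARP3-/- call in none of these.

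PRC1, which crosslinks the microtubules of the central spindle, had 105, 105 and 104 FPKM with vehicle and 104, 101 and 104 with pyridostatin in WT, and 108, 106 and 105 with vehicle and 92.1, 94.2 and 88.3 with pyridostatin in PARP3-/- cells. It fell by 13.8% in PARP3-/- cells (-0.21, SE 0.032, 95% interval -0.28 to -0.14, adjusted p = 0.00405), while in WT the groups parted by a small margin and the change was -0.023 (95% interval -0.094 to 0.048, adjusted p = 0.74). KIF23, a component of centralspindlin, was the other gene called in PARP3-/- cells (-0.23, SE 0.040, adjusted p = 0.0086). In WT its treated values also lay below the untreated ones, and it was not called (-0.13, SE 0.040, limma adjusted p = 0.0923). Without WT vehicle replicate 2 KIF23 was called in WT too (-0.18, adjusted p = 0.00617). ECT2, ANLN and KIF14 were called in neither genotype with all libraries. Each was called in both once WT vehicle replicate 2 was left out, ECT2, the exchange factor that activates RhoA, at -0.33 in WT and -0.27 in PARP3-/- cells (adjusted p = 0.00294 and 0.00301).

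MKI67, which encodes the Ki-67 proliferation marker, had 36.1, 24.9 and 35.5 FPKM in WT vehicle, 31.6, 26.9 and 34.3 in WT pyridostatin, 33.7, 28.7 and 30.04 in PARP3-/- vehicle and 25.01, 26.6 and 29.5 in PARP3-/- pyridostatin libraries. The groups overlapped in each comparison. It was not called with all libraries (adjusted p = 0.894 and 0.518 in WT and PARP3-/- cells) or without WT vehicle replicate 2, and its intervals of -0.34 to 0.26 and -0.49 to 0.12 include changes as large as those of the genes called.

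The next question was whether the genotypes differed. With vehicle the count of genes called was near or under the share of all genes, so it is no result about the 47. Of the 47 genes, 1 (2.13%) was called lower in PARP3-/- than in WT cells and 0 higher. Of all genes 3.01% were called lower and 6.4% higher. The median log2 difference was -0.017 against 0.015 over all genes (-0.056 and 0.0046 without WT vehicle replicate 2). The gene called lower was PBK, at 66.1 ± 0.268 against 74.9 ± 0.356 FPKM (SD, n = 3), 11.8% lower (-0.18, SE 0.027, 95% interval -0.24 to -0.12, limma adjusted p = 0.00156). All 3 PARP3-/- values lay below all 3 WT values for 9 genes (9.17% of all genes), among them FOXM1, MYBL2, MAD2L1, CENPA and CDK1, whose differences of -0.12, -0.13, -0.11, -0.14 and -0.064 were not called. NDC80 and KIF4A had all 3 values above those of WT, at 0.12 and 0.080, and were not called either. The share of all genes with all 3 values higher is not given here, so this is no result about the 47. Leaving out WT vehicle replicate 2 gave 3 genes called lower (6.38%, against 5.02% of all genes). They were PBK, KIF11 (-0.11, limma adjusted p = 0.035) and ASPM (-0.18, adjusted p = 0.0195). AURKB was called higher (2.13%, against 8.82% of all genes), at 0.25 (adjusted p = 0.000801).

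With pyridostatin 9 of the 47 genes were called lower in PARP3-/- than in WT cells and 0 higher, where 3.85% of all genes were called lower and 7.07% higher. The 9 were PBK, AURKA, NEK2, FOXM1, NUF2, NDC80, DLGAP5, PRC1 and KIF20A. The median difference of the 47 was -0.12, against 0.0083 over all genes, and 45 of the 47 lay below 0, the exceptions being AURKB and CDCA8. All 3 PARP3-/- values lay below all 3 WT values for 29 genes (15.9% of all genes). Of the 9 genes, 8 were also called for pyridostatin in PARP3-/- cells, FOXM1 being the exception, and the 2 comparisons share the PARP3-/- pyridostatin libraries. The counts without WT vehicle replicate 2 were 23 lower (8.24% of all genes) and 1 (AURKB) higher (11.1%). The count fell to 2 to 4 when any 1 of 7 other libraries was left out (PARP3-/- pyridostatin 2 and 3, PARP3-/- vehicle 1 to 3, WT pyridostatin 1 and 3). PBK and PRC1 were called under all 20 alternatives and 4 of the 9 under all 8 settings.

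**Figure D5:**
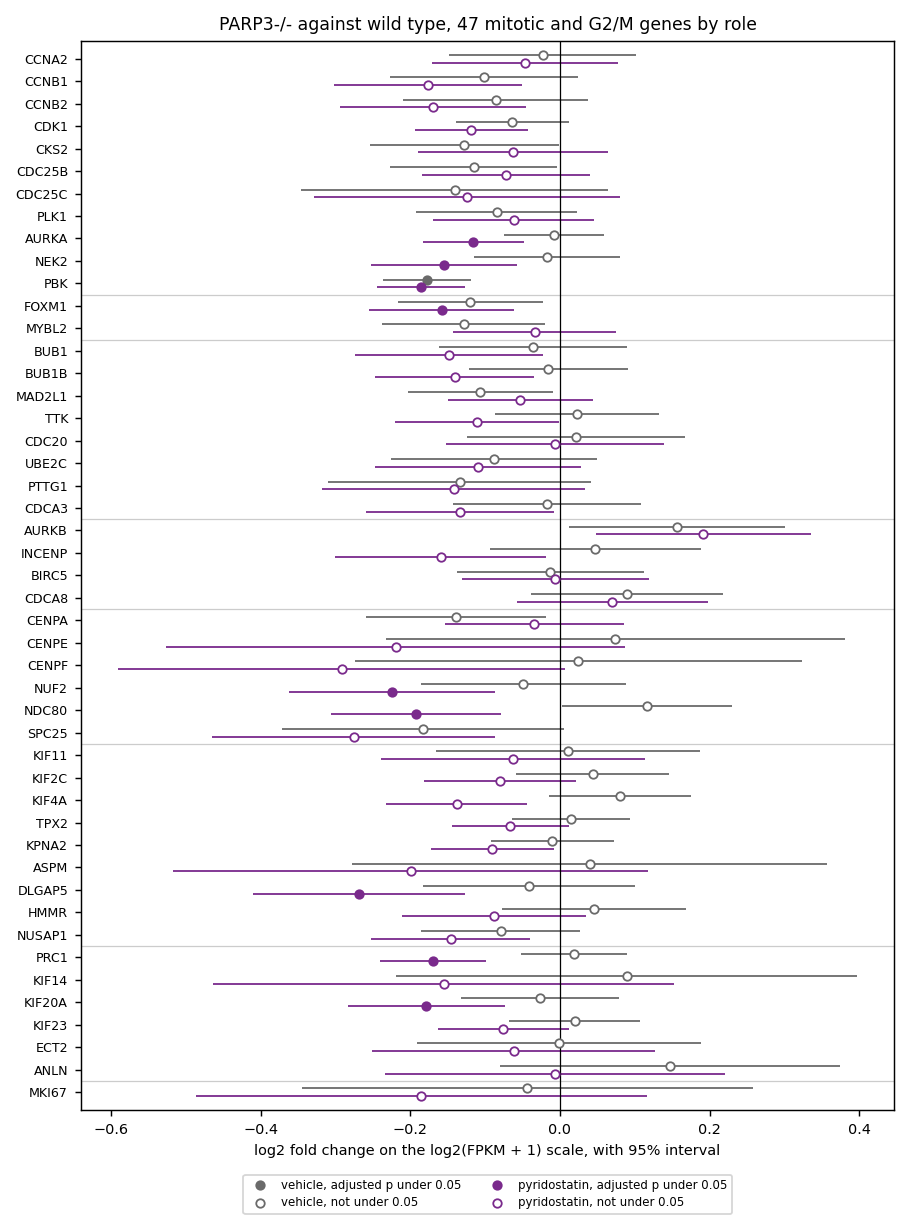
Log2 difference of PARP3-/- from WT on the log2(FPKM + 1) scale with its 95% interval for each of the 47 genes, with vehicle in grey and with pyridostatin in purple; filled points passed an adjusted p of 0.05. The grey points scatter around 0 with PBK alone filled, and the purple points lie mostly left of 0 with 9 filled.

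The largest of the 9 differences was that of DLGAP5, at 31.3 ± 1.86 FPKM in PARP3-/- and 37.9 ± 2.80 in WT cells (SD, n = 3), 17.5% lower (-0.27, SE 0.064, 95% interval -0.41 to -0.13, adjusted p = 0.0216). NUF2 differed by -0.22 and NDC80 by -0.19 (adjusted p = 0.0426 and 0.0372, limma). PBK and PRC1 had the smallest adjusted p, 0.0011 and 0.00599, at -0.19 and -0.17. PBK also differed with vehicle, by -0.18. KIF20A, FOXM1, NEK2 and AURKA followed at -0.18, -0.16, -0.16 and -0.12, with adjusted p = 0.0369, 0.043, 0.0477 and 0.0342. CDC20, BIRC5 and MYBL2, which were called lower with pyridostatin in PARP3-/- cells, were not called between the genotypes, with intervals of -0.15 to 0.14, -0.13 to 0.12 and -0.14 to 0.075.

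AURKB lay on the other side of 0. It had 67.3, 67.4 and 69.8 FPKM in WT and 77.7, 78.9 and 77.4 in PARP3-/- libraries with pyridostatin, all 3 PARP3-/- values being higher (0.19, SE 0.065, 95% interval 0.048 to 0.34, adjusted p = 0.093, and 0.00138 without WT vehicle replicate 2). With vehicle it had 74.9, 93.5 and 79.2 in WT and 90.3, 93.1 and 91.6 in PARP3-/- libraries, with an overlap made by WT replicate 2.

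A test of whether pyridostatin acted differently in the 2 genotypes, the interaction of genotype and treatment, called 0 of the 47 genes and 0% of all genes. At an unadjusted p under 0.05 it found 7 of the 47 and 521 of the 11881 genes (4.39%). The counts of 7 and 22 called above therefore do not show that the drug acted differently in the 2 genotypes. The interaction lay below 0, a steeper fall in PARP3-/- cells, for 38 of the 47 genes, with a median of -0.084 against -0.0073 over all genes. The smallest p-values were those of NDC80 (-0.31, SE 0.073, 95% interval -0.47 to -0.15, unadjusted p = 0.00148, limma), PRC1 (-0.19, SE 0.045, 95% interval -0.29 to -0.089, unadjusted p = 0.00169) and KIF4A (-0.22, SE 0.061, 95% interval -0.35 to -0.084, unadjusted p = 0.00442), each with an adjusted p of 0.999. Without WT vehicle replicate 2 the median was -0.064, with 39 genes below 0, again 0 called and 7 at an unadjusted p under 0.05, where 1114 of all genes reached it (9.38%). The 3 named genes had -0.26, -0.19 and -0.17. For PBK, called in each genotype, the interaction was -0.0078 (SE 0.038, 95% interval -0.091 to 0.075).

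Some other genes, listed by symbol as G2/M genes, were called lower too. When in the cycle they are expressed was not checked. Of 84 further G2/M genes that were tested, 9 (10.7%) were called lower with pyridostatin in WT and 25 (29.8%) in PARP3-/- cells, against 1.38% and 2.52% of all genes, and 0 higher in either. Their medians were -0.098 and -0.17. The counts without WT vehicle replicate 2 were 24 (28.6%) and 46 (54.8%), against 2.47% and 6.19% of all genes. LMNB1, which encodes lamin B1 of the nuclear envelope, had 53.7 ± 3.35 FPKM in WT vehicle and 41.4 ± 3.09 in WT pyridostatin cells (SD, n = 3), and 55.7 ± 1.43 and 42.2 ± 0.991 in PARP3-/- cells (-0.37 and -0.39, adjusted p = 0.00581 and 0.00319, limma). DSN1, a kinetochore subunit, changed by -0.31 and -0.28, and CENPU, of the inner kinetochore, by -0.17 and -0.25 (adjusted p = 0.00309, 0.00471, 0.0189 and 0.00179). WEE1, the kinase that restrains CDK1, was called in WT (-0.25, adjusted p = 0.0113). It had 9.38 ± 0.288 FPKM in WT vehicle and 7.73 ± 0.339 in WT pyridostatin cells (SD, n = 3). In PARP3-/- cells it had 10.1 ± 0.417 with vehicle and 8.46 ± 0.229 with pyridostatin. Genes were taken for each comparison by smallest adjusted p, and the fit of WEE1 in PARP3-/- cells is not given here. Its call in WT is therefore no sign of a change in WT alone.

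Between the genotypes, 1 of these 84 genes (1.19%) was called lower in PARP3-/- cells with vehicle and 2 (2.38%) higher, against 3.01% and 6.4% of all genes. With pyridostatin 4 (4.76%) were called lower and 1 (1.19%) higher, against 3.85% and 7.07%. With all libraries these shares are near or under those of all genes, so the counts are no result about the list. HJURP, the chaperone that loads CENPA, was the lower one with vehicle and had the smallest adjusted p with pyridostatin (-0.18 and -0.31, adjusted p = 0.0188 and 0.000596, limma). OIP5, SGOL1 and NCAPH were the others lower with pyridostatin (-0.28, -0.19 and -0.15). SPDL1, which recruits dynein to kinetochores, and MIS12 were higher with vehicle (0.32 and 0.17, limma adjusted p = 0.00333 and 0.0377). CKAP4 was higher with pyridostatin (0.17, adjusted p = 0.0478). It was listed by its symbol, and its place among G2/M genes was not checked. Without WT vehicle replicate 2, 3 of the 84 (3.57%) were called lower and 1 (1.19%) higher with vehicle, against 5.02% and 8.82% of all genes. With pyridostatin 14 (16.7%) were then called lower, above the 8.24% of all genes, and 3 (3.57%) higher, against 11.1%. Lists of other regulators that bind the promoter elements shown above were counted as well. In any comparison 0 of the 11 genes of the DREAM and MuvB complexes and 0 of the 3 NF-Y subunits were called (limma). These lists leave out MYBL2 and FOXM1, which were described above. MYBL2 was called lower with pyridostatin in each genotype (limma adjusted p = 0.00715 in WT and 0.0344 in PARP3-/- cells). FOXM1 was called lower in PARP3-/- than in WT cells with pyridostatin (adjusted p = 0.043). At an unadjusted p under 0.05 pyridostatin gave 2 DREAM and MuvB genes and 0 NF-Y subunits in WT, and 2 and 1 in PARP3-/- cells. Of all genes 20.3% and 19.6% reached it, against 18.2% of the DREAM and MuvB genes in each genotype. The lists are small, and these counts are no result about them. Without WT vehicle replicate 2, 1 DREAM gene (LIN9) was called lower between the genotypes with pyridostatin and 1 NF-Y subunit (NFYB) lower with pyridostatin in PARP3-/- cells, both named after their values were seen. These are 9.09% of the DREAM and MuvB genes and 33.3% of the NF-Y subunits, against 8.24% and 6.19% of all genes. With lists this small, the counts are no result about them.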

How the data were processed

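Total RNA of 12 A549 cultures was sequenced from stranded mRNA libraries (single-end, 75 bases). The authors deposited FPKM values per gene and library, unpooled. The submitters' processing notes list bcl2fastq 2.16, STAR 2.5, Cufflinks without a version, and the builds hg19 and mm9 without a role. The annotation is not given in the sources used here. Library depth in reads is unknown.

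Testing was limited to the 11881 genes that averaged 1 FPKM or more, all 47 members included, and used log2(FPKM + 1), which understates changes of low genes. limma 3.58.1 in R 4.3.3 fitted the 4 groups in one model (eBayes with trend), with Benjamini-Hochberg adjustment over all genes and a threshold of 0.05. Groups followed the labels. The tests were checked on simulated data, and a gene not called is not shown to be unchanged. The members and lists were chosen with earlier results of these data known.

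All 12 libraries were given for members called in at least 2 of the 4 comparisons and for 11 anchor genes (CCNB1, CDK1, PLK1, AURKA, CDC20, BUB1, CENPF, TPX2, KIF20A, FOXM1, MKI67). Of the other lists, up to 5 genes per direction and comparison were taken by smallest adjusted p. Transcript lengths were taken from GENCODE 29 and promoters from RefSeq (GRCh38.p14). The lists were further G2/M genes, G1/S and replication genes, DREAM and MuvB, NF-Y, and cell type markers. Alternatives changed the pseudocount, filter, scaling, fit and libraries.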

Additional observations from a re-analysis of the deposited data

How the results depend on the processing

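The members called lower numbered 1 and 9 between the genotypes (vehicle, pyridostatin) and 7 and 22 with pyridostatin (WT, PARP3-/-). No call turned its direction under any alternative. PBK was called in all 4 comparisons under each of the 20 alternatives run (8 settings and 12 omissions of 1 library).

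With each library left out in turn, the members called lower ranged over 1 to 3 and 2 to 23 between the genotypes and 3 to 15 and 9 to 37 with pyridostatin. Those called higher between the genotypes ranged over 0 to 1 in each treatment. All genes called ranged over 806 to 2298 between the genotypes with pyridostatin, over 178 to 706 and 254 to 1559 for pyridostatin in WT and PARP3-/- cells, and over 0 to 1 for the interaction. The member medians ranged over -0.056 to -0.0060 and -0.15 to -0.099 between the genotypes and -0.12 to -0.064 for the interaction. The highest counts were those without WT vehicle replicate 2.

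With only the libraries of a comparison fitted, 1 member (PBK) was called lower in WT with pyridostatin and 65 genes in all, 532 genes differed between the genotypes with vehicle, and 1 member (AURKB) was higher between them with pyridostatin. Without a trend, and without a filter, 4 members (PBK, MYBL2, MAD2L1, CENPA) were called in WT with pyridostatin. Quantile normalization called 1 member (AURKB) higher between the genotypes in each treatment and gave a median of -0.086 for pyridostatin in WT. Shifting libraries to a common median gave 2 members (PBK, MAD2L1) lower between the genotypes with vehicle, and medians of -0.057 and -0.15 between the genotypes and -0.15 for pyridostatin in WT. A pseudocount of 0.1, or no filter, gave 1 gene for the interaction, a different one in each (SNORA51, PMCH) and no member. The cause was not tested.

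Replicate numbers did not pair the libraries (correlations of same-numbered deviations from -0.12 to 0.22). With the replicate number as a block, 1 and 8 members were called lower between the genotypes and 6 and 21 with pyridostatin, and 0 for the interaction.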

Other observations

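Genes of the G1/S transition and of DNA replication, which are expressed before the mitotic genes in the cycle, were also lower with pyridostatin. Of 43 tested, 16 (37.2%) were called lower in WT and 30 (69.8%) in PARP3-/- cells, against 1.38% and 2.52% of all genes, and 0 higher in either, with medians of -0.21 and -0.24 on the log2(FPKM + 1) scale. Without WT vehicle replicate 2 the counts were 22 (51.2%) and 36 (83.7%), against 2.47% and 6.19% of all genes. No test of a difference from the mitotic genes was made. MCM3 and MCM6, subunits of the replicative helicase, had 53.6 ± 0.452 and 35.99 ± 1.06 FPKM (SD, n = 3) in WT vehicle cells and 44.8 ± 1.26 and 28.5 ± 1.33 in WT pyridostatin cells (-0.25 and -0.33, limma adjusted p = 0.0022 and 0.000933). In PARP3-/- cells they had 58.9 ± 1.98 and 34.3 ± 0.541 with vehicle and 45.6 ± 0.426 and 26.1 ± 0.209 with pyridostatin (-0.36 and -0.38, adjusted p = 0.000261 and 0.000425). CDC6, which loads that helicase, and MCM10, a replication initiation factor, fell in each genotype (-0.27 and -0.30 in WT, -0.28 and -0.31 in PARP3-/- cells).

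Between the genotypes, 0 of these 43 genes were called lower and 2 (4.65%) higher in PARP3-/- cells with vehicle, against 3.01% and 6.4% of all genes. The 2 were MCM3 at 0.13 and GINS3 at 0.13 (limma adjusted p = 0.0314 and 0.0355). An unadjusted p under 0.05 was reached by 7 of the 43 (16.3%), under the 21.6% of all genes. With pyridostatin 2 (4.65%) were called lower, the ribonucleotide reductase subunits RRM1 and RRM2 at -0.14 and -0.13 (adjusted p = 0.0085 and 0.0486), and 1 (2.33%) was called higher, cyclin E1 (CCNE1), at 0.20 (adjusted p = 0.0403). The shares of all genes were 3.85% and 7.07%, so with all libraries these counts are near or under those of all genes. Without WT vehicle replicate 2, 3 of the 43 (6.98%) were called lower and 5 (11.6%) higher with vehicle, against 5.02% and 8.82% of all genes. With pyridostatin 7 (16.3%) were then called lower, above the 8.24% of all genes, and 2 (4.65%) higher, against 11.1%.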
